A study of Mus musculus with 15 samples.

Results

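Genes used to recognise blood stem cells, or known to tie them to their niche, are described here in mouse LSK cells: Procr, Ly6a, Cd34, Slamf1, Esam, Tek, Angpt1, Pdzk1ip1, Robo4 and Fgd5. They were chosen by name from a list of 10, and a gene was measured where a probe set of the array carried its symbol and no other. This held for 9 of the 10, out of 22180 genes with a probe set of their own. Ly6a, the gene of the Sca-1 antigen by which LSK cells are sorted, had no such probe set and is not analysed here. For a gene with several probe sets, the brightest over all arrays was used.

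LSK cells are lineage-negative, Sca-1-positive, Kit-positive marrow cells, a sorted mixture of stem cells and early progenitors. RNA of 15 samples, from 500 pg each, was read on Affymetrix Mouse Gene 2.0 arrays, in 3 groups of 5. The non-cultured cells were taken straight after sorting. The other 2 groups were kept for 18 h in MyeloCult M5300 medium, either with extracellular vesicles (EV) of AFT cells or with none added. The labels give no strain, genotype, age or sex, and do not say how many animals stand behind a sample, so p-values measure the spread between samples. Against non-cultured cells, medium, time and handling differ together and cannot be told apart.

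Stem cells are held in the marrow by signals that pass between their surface and neighbouring cells. Angiopoietin-1, made by Angpt1, is a ligand of the receptor tyrosine kinase TIE2, the product of Tek. This pair has been proposed to keep stem cells quiescent and attached. ROBO4 is a receptor of the Roundabout family that helps stem cells lodge in the marrow, and ESAM is an adhesion molecule of endothelial junctions that stem cells also carry. The remaining genes encode surface or signalling proteins whose levels are used to separate stem cells from the progenitors beside them.

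Promoter sequence of mouse build GRCm38.p6 was at hand from RefSeq for 7 of the 10 genes. Those of 3 are shown, on the plus strand and 5′ to 3′: Pdzk1ip1, which rose in culture, Robo4, which fell, and Cd34, whose difference did not pass the test. Each run ends at the base before the annotated start of the gene, at chr4:115088458-115088707 for Pdzk1ip1, chr9:37401722-37401901 for Robo4 and chr1:194938571-194938820 for Cd34. Capitals mark matches, on either strand, to the ETS motif AGGAAG and the RUNX-type motif TGNGGT, families of factors known for their work in blood stem cells.
Pdzk1ip1: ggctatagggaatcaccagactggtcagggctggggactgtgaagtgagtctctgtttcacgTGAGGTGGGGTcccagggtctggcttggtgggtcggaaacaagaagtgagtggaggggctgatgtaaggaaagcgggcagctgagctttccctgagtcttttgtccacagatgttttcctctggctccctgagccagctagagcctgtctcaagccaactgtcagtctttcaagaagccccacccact
Robo4: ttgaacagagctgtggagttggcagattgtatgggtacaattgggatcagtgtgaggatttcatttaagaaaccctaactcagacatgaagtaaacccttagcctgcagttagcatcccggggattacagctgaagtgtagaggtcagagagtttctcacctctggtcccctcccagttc
Cd34: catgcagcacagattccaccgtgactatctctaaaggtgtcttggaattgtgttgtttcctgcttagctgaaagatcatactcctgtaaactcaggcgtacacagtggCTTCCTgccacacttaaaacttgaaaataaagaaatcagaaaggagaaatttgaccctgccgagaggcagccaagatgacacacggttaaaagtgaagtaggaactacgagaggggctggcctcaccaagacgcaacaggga

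Upstream of Pdzk1ip1 stood 2 RUNX-type matches that share a base, beginning 188 and 183 bases before the gene. The Cd34 stretch held 1 ETS match on the other strand, 142 bases before the start, and the Robo4 stretch printed held none of either kind. Over the 250-base windows of the 7 genes, AGGAAG was found in 4, TGNGGT in 3, the E-box CAGCTG or CATCTG in 3, the GATA motif AGATAA or TGATAA in 1 and the AP-1 motif TGANTCA in 1. The ETS core CCGGAA and the motif TTCNNNGAA were found in 0 of the 7. Some of these windows ran past the annotated start of the gene. Tek had 47 bases of its window before that start, Fgd5 112, Procr 158 and Robo4 180. The AGGAAG match of Robo4, the TGNGGT match of Tek and the E-box match of Procr lay past it. Among all 32851 promoters, 29.5% held AGGAAG, 40.1% TGNGGT, 25.5% the E-box, 16.6% the GATA motif, 6.75% the AP-1 motif, 12% CCGGAA and 7.02% TTCNNNGAA. These matches describe letters in a window and say nothing of binding.

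All values are log2 signals as deposited, and a difference of 1 on this scale is a doubling. Medians of the 15 arrays lay between 4.62 and 4.74. No array quality measure or background is given, so a dim gene could not be told from background; Slamf1 lay among the dimmest 40% of genes and the other 8 did not. The library with EV of replicate 1 stood apart. Its mean correlation with its own group was 0.928, against 0.943 to 0.961 for the other 14. Calls of the 9 genes that changed without it are given both ways. Partner genes whose calls were lost when single arrays were left out are named further on. Non-cultured replicates 4 and 5 differed from the other 3 in some partner genes described further on, such as the thrombin receptor gene F2r (8.95 and 8.75 against 9.66 to 9.85), and results of the 9 genes that change without them are also given. Kit, which defines the sort, had means of 9.62 in non-cultured cells, 10.01 without EV and 9.88 with EV. The mean of 11 measured markers of mature lineages ranged over the arrays from 4.33 to 4.64 in non-cultured cells, 4.41 to 4.52 without EV and 4.28 to 4.60 with EV. Of these 11, Adgre1, a macrophage marker, was higher than in non-cultured cells both without EV (by 0.56, limma adjusted p = 0.00762) and with EV (by 0.58, limma adjusted p = 0.00593). Itgam, a myeloid integrin gene, had a difference of 0.55 without EV that did not pass (limma adjusted p = 0.0826). Their part in the results was not tested.

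**Figure D1:**
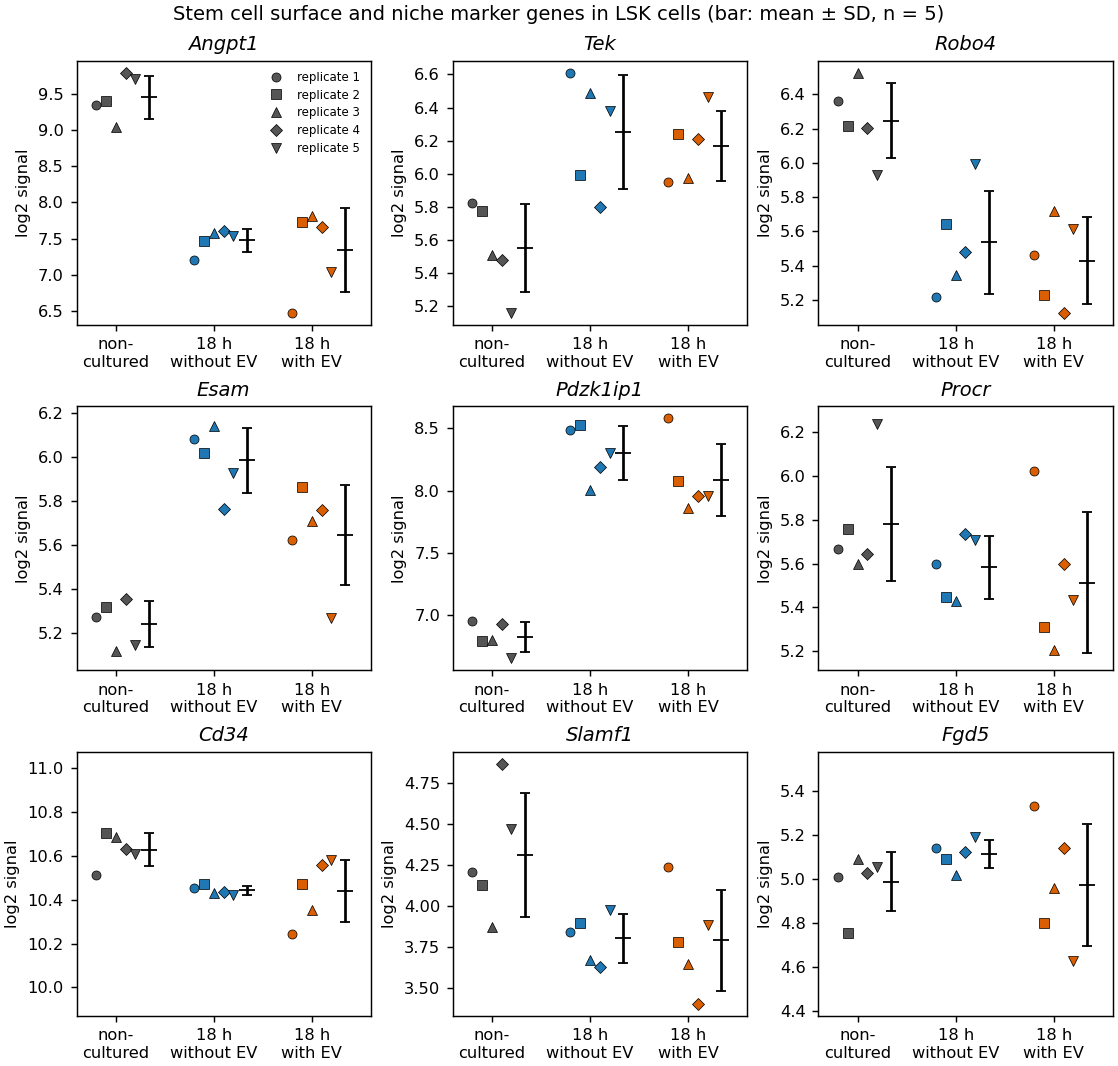
Log2 signal of the 9 measured genes on each of 15 arrays, 1 point per array with a shape for its replicate number, and the mean ± SD (n = 5) beside each group. Angpt1 and Pdzk1ip1 part the non-cultured from all cultured arrays, while Procr and Fgd5 overlap across the groups.

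The effect of culture was asked first, by setting cells kept 18 h without EV against non-cultured cells. Angpt1 fell and Pdzk1ip1 rose by the largest amounts among the 9 genes, Esam and Tek rose and Robo4 fell. Cd34, Slamf1, Procr and Fgd5 did not pass the test. Of the 9 genes, 3 were thus higher and 2 lower at a limma adjusted p under 0.05 (Benjamini-Hochberg over all 22180 genes), where 6.75% of all genes were higher and 6.88% lower. For 4 of the 9 the 2 groups of arrays did not overlap, which held for 12% of all genes. The median difference was -0.19 over the 9 genes and 0.01 over all genes. In bulk RNA of sorted cells, a smaller share of cells of a kind and less RNA per cell cannot be told apart.

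Angpt1 (chr15:42424667-42676977) read 9.34, 9.40, 9.05, 9.78 and 9.70 in the 5 non-cultured arrays. Without EV it read 7.21, 7.46, 7.58, 7.60 and 7.53. Every array without EV lay more than 1 log2 unit below every non-cultured one. The mean fell from 9.45 ± 0.30 to 7.47 ± 0.16 (SD, n = 5 each), a log2 difference of -1.98 (SE 0.22), or 3.94-fold lower (limma adjusted p = 1.32e-05). A dimmer probe set of the same gene, kept out of the main values, also fell, from 3.71 to 2.85 (log2 difference -0.87, SE 0.17, limma adjusted p = 0.00192 over 23521 probe sets). It gave a smaller difference than the brighter one, and the mean of both fell by 1.42.

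Tek (chr4:94739086-94874976), the receptor of that ligand, read 5.82, 5.77, 5.51, 5.48 and 5.16 in non-cultured cells. Without EV it read 6.61, 5.99, 6.49, 5.79 and 6.38. The groups touched at their edges, with 24 of 25 pairs of arrays higher without EV. The mean rose from 5.55 ± 0.27 to 6.25 ± 0.34 (SD, n = 5 each), a log2 difference of 0.70 (SE 0.17, limma adjusted p = 0.0085). Ligand and receptor thus moved in opposite directions. Without non-cultured replicates 4 and 5, which hold the 2 lowest values of Tek, the difference was 0.55 and missed the threshold (limma adjusted p = 0.0699).

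Around this pair, 10 of 13 listed genes of the TIE and angiopoietin family were measured, and 0 of them passed the test, with 1 at an unadjusted p under 0.05. Tie1, the sister receptor of Tek, had means of 6.23 and 6.66 (log2 difference 0.43, SE 0.19, limma adjusted p = 0.169). After culture with EV, Angpt4, another angiopoietin, was higher than in non-cultured cells, by 0.29 (SE 0.08, limma adjusted p = 0.0279). Without replicate 1 with EV the difference was 0.26 and did not pass (limma adjusted p = 0.0545). The means of Angpt4, 4.24 and 4.53, lay below the median of every array.

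Robo4 (chr9:37401902-37414023) read 6.36, 6.22, 6.52, 6.20 and 5.93 in non-cultured cells. Without EV it read 5.22, 5.64, 5.34, 5.48 and 6.00. Replicate 5 of the group without EV reached into the non-cultured range, and 24 of 25 pairs were lower. The mean fell from 6.25 ± 0.22 to 5.54 ± 0.30 (SD, n = 5 each), a log2 difference of -0.71 (SE 0.16), or 1.64-fold lower (limma adjusted p = 0.005). Of 15 listed ROBO, SLIT and related genes, all measured, 1 rose and 1 fell. Robo3, a Roundabout receptor known from axon guidance, rose from 5.21 ± 0.30 to 7.76 ± 0.22 (SD, n = 5 each), by 2.55 (SE 0.20, limma adjusted p = 2.7e-07). Sdc4, the cell surface proteoglycan syndecan-4, fell by 0.61 (SE 0.16, limma adjusted p = 0.0144). Robo1 had means of 3.39 and 3.41. Robo4 and Robo3 thus moved in opposite directions.

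Esam (chr9:37528089-37538319) read 5.27, 5.32, 5.12, 5.35 and 5.14 in non-cultured cells and 6.08, 6.02, 6.14, 5.76 and 5.93 without EV. The groups did not overlap. The mean rose from 5.24 ± 0.10 to 5.99 ± 0.15 (SD, n = 5 each), a log2 difference of 0.74 (SE 0.11), or 1.68-fold higher (limma adjusted p = 0.000197). Of 13 genes of endothelial-type junctions, all measured, 1 rose and 2 fell. Pecam1, an adhesion receptor of endothelium, platelets and blood progenitors, rose by 0.75 (SE 0.10, limma adjusted p = 0.000101). Icam2, a ligand of leukocyte integrins, fell by 1.41 (SE 0.17, limma adjusted p = 2.73e-05), and Jam3, a junctional adhesion molecule carried by stem cells, fell by 0.62 (SE 0.19, limma adjusted p = 0.0385).

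Since Esam, Tek and Robo4 are also endothelial genes, a list of 20 endothelial markers was read beside them. Its mean over genes ranged from 4.75 to 4.94 on the non-cultured arrays, 4.88 to 5.01 without EV and 4.90 to 5.00 with EV. Without EV, 3 of the 20 were higher (Pecam1, Sox18 and Fabp4) and 1 lower (Emcn). Cdh5, the cadherin that defines endothelial junctions, had means of 3.84 and 3.99, and Kdr, a receptor of vascular growth factor, of 3.73 and 3.81, in non-cultured cells and without EV. Both lay below the median of every array, and neither passed the test. Other markers of the list were brighter. Means of the 20 ran from 2.79 (Fabp4) to 7.53 (Pecam1) in non-cultured cells. Without EV they ran from 2.77 (Cd36) to 8.28 (Pecam1). No value on these arrays is 0, and the part of endothelial cells in the 3 results was not tested.

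Pdzk1ip1 (chr4:115088708-115093894) encodes a small membrane protein that binds the scaffold PDZK1, and its activity is used to mark mouse stem cells. It read 6.96, 6.79, 6.80, 6.93 and 6.65 in non-cultured cells and 8.49, 8.53, 8.01, 8.19 and 8.30 without EV. Every array without EV lay more than 1 log2 unit above every non-cultured one. The mean rose from 6.83 ± 0.12 to 8.30 ± 0.22 (SD, n = 5 each), a log2 difference of 1.48 (SE 0.13), or 2.78-fold higher (limma adjusted p = 1.73e-06). Of 7 measured genes of PDZK1 partners and other transport and adaptor genes, out of 8 listed, 1 rose: Numb, an adaptor of endocytosis and cell fate, by 0.65 (SE 0.16, limma adjusted p = 0.0102).

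Markers of megakaryocytes and platelets, which share surface genes with stem cells, were also read, and 2 of 12 passed the test, both higher. Their median difference from non-cultured cells was 0.18 without EV and 0.21 with EV. The mean of 12 measured markers, out of 15 listed, ranged from 5.15 to 5.27 on the non-cultured arrays, 5.61 to 6.00 without EV and 5.57 to 5.97 with EV. All 10 cultured arrays lay above all non-cultured ones on this mean. Itgb3, an integrin chain, rose by 3.70 and Itga2b, its partner chain, by 1.02 without EV, and the other 10 markers did not pass the test. Among these, the platelet genes Pf4 and Gp5 had higher means without EV and an unadjusted p under 0.05. Pf4 was at 6.81 and 7.54 (log2 difference 0.73, limma adjusted p = 0.0783) and Gp5 at 5.26 and 6.01 (0.75, limma adjusted p = 0.102). Ppbp and Tubb1, also genes of mature megakaryocytes, had means of 3.68 and 3.91 in non-cultured cells and 3.51 and 3.90 without EV. The part of megakaryocyte RNA in the values of Pdzk1ip1 and Esam was not tested.

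Cd34 (chr1:194938821-194961292) encodes the sialomucin that separates short-term from long-term repopulating cells in the mouse. It read 10.51, 10.70, 10.69, 10.63 and 10.61 in non-cultured cells and 10.45, 10.47, 10.43, 10.44 and 10.42 without EV. The groups did not overlap, but lay close together. The means were 10.63 ± 0.07 and 10.44 ± 0.02 (SD, n = 5 each), with a log2 difference of -0.19 (SE 0.08), a limma p of 0.0307 and an adjusted p of 0.148. A probe set shared by Cd34 and the predicted gene Gm16897, which entered no test, had group means of 6.02 in non-cultured cells, 6.07 without EV and 6.08 with EV.

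Among 10 measured sialomucin and selectin genes, out of 12 listed, 2 rose and 4 fell. Selplg, which codes for the P-selectin ligand of blood cells, rose from 8.94 ± 0.23 to 10.08 ± 0.10 (SD, n = 5 each), by 1.14 (SE 0.11, limma adjusted p = 1.9e-06). Selp, P-selectin itself, fell by 1.09 (SE 0.11, limma adjusted p = 5.71e-06). Emcn, the endomucin of endothelium and stem cells, fell by 1.56 (SE 0.32, limma adjusted p = 0.00304), and Cd24a fell by 0.44 (SE 0.08, limma adjusted p = 0.00126). Sele was higher by 0.69, and Muc1 was lower by 0.30. All values of Muc1 lay below the median of every array. The genes of this list thus moved in both directions.

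Slamf1 (chr1:171767131-171801184) encodes CD150, the antigen by which SLAM staining picks out stem cells. It read 4.21, 4.13, 3.88, 4.87 and 4.47 in non-cultured cells and 3.84, 3.90, 3.67, 3.63 and 3.98 without EV. The groups overlapped in a range where most arrays lay below the median of all probe sets. The means were 4.31 ± 0.38 and 3.80 ± 0.15 (SD, n = 5 each), with a log2 difference of -0.51 (SE 0.17, limma adjusted p = 0.0662). Without replicate 1 of the group with EV, which enters the pooled spread, this passed the threshold at the same difference (limma adjusted p = 0.0427), and without non-cultured replicate 3, the lowest of its group, the limma adjusted p was 0.0271. Of 10 measured SLAM family genes and adaptors, out of 11 listed, 1 passed: Cd48, which marks progenitors beyond the stem cell, fell from 6.93 ± 0.20 to 6.13 ± 0.54, by 0.80 (SE 0.23, limma adjusted p = 0.026). Cd48 belongs to a list of 8 markers of multipotent progenitors, 7 of them measured, whose mean ranged from 7.46 to 7.72 in non-cultured cells, 6.75 to 6.92 without EV and 6.64 to 7.17 with EV. Of the 7, Flt3 was higher without EV, and Cd48, Satb1, Dntt and Notch1 were lower, Dntt by the most, with a fall by 3.60. The part of a shift among progenitors in these values was not tested.

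Procr (chr2:155751125-155755478) encodes the endothelial protein C receptor, a surface marker of long-term stem cells. It read 5.67, 5.76, 5.60, 5.64 and 6.24 in non-cultured cells and 5.60, 5.45, 5.43, 5.73 and 5.71 without EV. The groups overlapped, and non-cultured replicate 5 stood above all others. The means were 5.78 ± 0.26 and 5.58 ± 0.14 (SD, n = 5 each), with a log2 difference of -0.20 (SE 0.15, limma adjusted p = 0.512). Of 11 measured genes of the protein C and thrombin pathway, out of 13 listed, 2 rose and 2 fell. Plaur, the urokinase receptor, fell by 2.42 (SE 0.23, limma adjusted p = 2.44e-06), and Thbd, thrombomodulin, which presents thrombin to protein C, fell by 1.28 (SE 0.20, limma adjusted p = 0.000321). The thrombin receptor F2r rose by 1.37 (SE 0.19, limma adjusted p = 0.000105), and F2rl2, a related receptor, was higher by 0.89.

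Fgd5 (chr6:91978827-92076005), a guanine exchange factor for CDC42 that marks mouse stem cells in reporter strains, read 5.01, 4.76, 5.09, 5.03 and 5.06 in non-cultured cells. Without EV it read 5.14, 5.09, 5.02, 5.12 and 5.19. The groups overlapped. The means were 4.99 ± 0.13 and 5.11 ± 0.06 (SD, n = 5 each), with a log2 difference of 0.13 (SE 0.12, limma adjusted p = 0.611). Of 16 measured exchange factors and CDC42 partners, out of 17 listed, 3 rose and 2 fell. Fgd3, of the same family, rose from 5.89 to 7.23, by 1.34 (SE 0.18, limma adjusted p = 7.84e-05), whereas Fgd1 fell by 0.62 (SE 0.16, limma adjusted p = 0.0153). The other 3 were Arhgdib, an inhibitor of GTPase cycling, and Itsn2, both higher, and Cdc42se2, lower.

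For Ly6a, which could not be read, 20 of 22 listed members of its family were measured, and 2 rose. Ly6c2 rose from 8.80 ± 0.21 to 10.31 ± 0.24 (SD, n = 5 each), by 1.52 (SE 0.16, limma adjusted p = 8.59e-06), and Ly6e by 0.30 (SE 0.07, limma adjusted p = 0.00563). Ly6c2 has a near-identical neighbour, Ly6c1, and signal that their probes may share could not be separated. The other 18 did not pass the test.

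**Figure D2:**
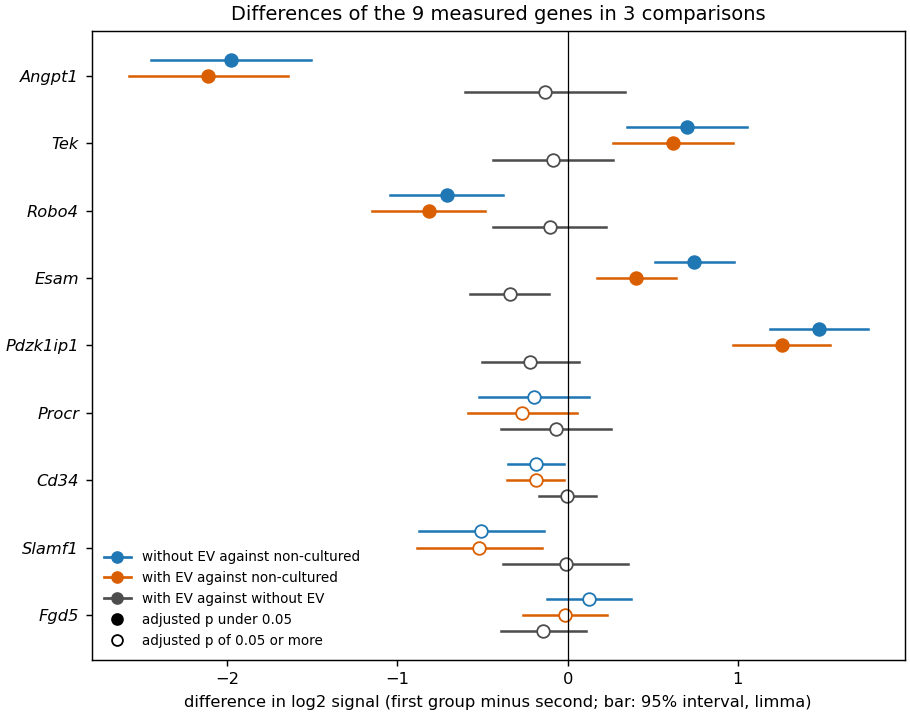
Log2 difference of each of the 9 measured genes in 3 comparisons, with 95% intervals from limma; filled points have an adjusted p under 0.05. Angpt1, Tek, Robo4, Esam and Pdzk1ip1 are filled for both cultured groups, and 0 genes are filled for EV against no EV.

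Cells cultured with EV were then set against the same 5 non-cultured arrays. Angpt1, Pdzk1ip1, Esam, Tek and Robo4 passed the test here too, so that 3 of 9 genes were higher and 2 lower, where 6.28% of all genes were higher and 7.85% lower. Of the 9, 4 did not overlap between the groups, against 11.2% of all genes. The median difference was -0.19 over the 9 genes and 0.04 over all. The non-cultured arrays stand in both culture comparisons, and their values are therefore given side by side and not as separate support.

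With EV, Angpt1 read 6.47, 7.73, 7.81, 7.66 and 7.03. Replicate 1 was the lowest of all 15 arrays. The mean of 7.34 ± 0.57 (SD, n = 5) was 4.32-fold below that of non-cultured cells (log2 difference -2.11, SE 0.22, limma adjusted p = 6.55e-06), and the difference was -1.89 without replicate 1. Pdzk1ip1 read 8.58, 8.08, 7.86, 7.95 and 7.95. Replicate 1 was here the highest of all arrays. The mean of 8.08 ± 0.29 (SD, n = 5) was 2.39-fold above that of non-cultured cells (log2 difference 1.26, SE 0.13, limma adjusted p = 8.74e-06), and 1.13 on the log2 scale without replicate 1.

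Robo4 read 5.46, 5.23, 5.72, 5.12 and 5.62 with EV. All 5 lay below the lowest non-cultured array. The mean of 5.43 ± 0.25 (SD, n = 5) was 1.76-fold lower (log2 difference -0.82, SE 0.16, limma adjusted p = 0.00179). Tek read 5.95, 6.24, 5.97, 6.21 and 6.46, which were above all non-cultured arrays. Its mean of 6.17 ± 0.21 (SD, n = 5) was 1.53-fold higher (log2 difference 0.62, SE 0.17, limma adjusted p = 0.0189).

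Esam read 5.62, 5.86, 5.71, 5.76 and 5.27 with EV, the last within the non-cultured range, and 22 of 25 pairs were higher. The mean of 5.64 ± 0.23 (SD, n = 5) was 1.32-fold above that of non-cultured cells (log2 difference 0.40, SE 0.11, limma adjusted p = 0.0206). The calls of Esam and Tek in this comparison each depended on single arrays. The adjusted p of Esam was 0.0526 without non-cultured replicate 3, 0.0565 without replicate 2 with EV and 0.0515 without replicate 4 with EV. That of Tek was 0.0506 without non-cultured replicate 5 and 0.0517 without replicate 5 with EV. Without non-cultured replicates 4 and 5 together, Esam differed by 0.41 (limma adjusted p = 0.0634) and Tek by 0.47 (limma adjusted p = 0.13), and 1 gene in place of 3 was called higher.

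The 4 remaining genes did not pass. Cd34 read 10.24, 10.47, 10.35, 10.56 and 10.58 with EV (log2 difference -0.19, SE 0.08, limma adjusted p = 0.137). Slamf1 read 4.24, 3.78, 3.65, 3.41 and 3.88 (log2 difference -0.52, SE 0.17, limma adjusted p = 0.0577). It passed the threshold without replicate 1, its highest array with EV, at -0.63 (limma adjusted p = 0.0201), and without non-cultured replicate 3 (limma adjusted p = 0.0237). Procr read 6.02, 5.31, 5.20, 5.60 and 5.43 (log2 difference -0.27, SE 0.15, limma adjusted p = 0.295). Replicate 1 stood above the other 4, and the difference was -0.39 without it (limma adjusted p = 0.0603). Fgd5 read 5.33, 4.80, 4.96, 5.14 and 4.63 (log2 difference -0.02, SE 0.12, limma adjusted p = 0.953).

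**Figure D3:**
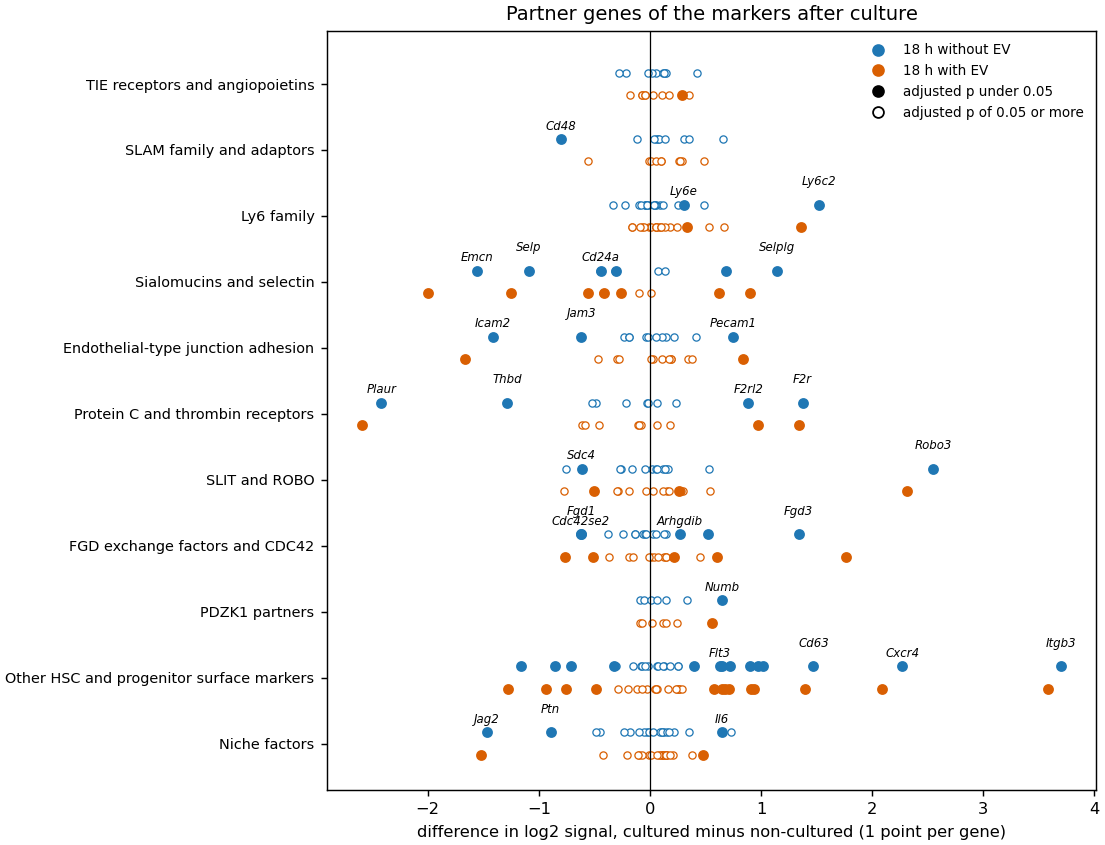
Log2 difference, cultured minus non-cultured, of each measured gene of 11 lists of family members and partners, 1 point per gene, for culture without and with EV; filled points have an adjusted p under 0.05. Named genes passed the test without EV; the widest shifts without EV are those of Itgb3 (3.70), Robo3 (2.55) and Plaur (-2.42).

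Over all 11 lists, 159 of 176 distinct genes were measured. Without EV 23 of them (14.5%) were higher and 18 (11.3%) lower than in non-cultured cells, and with EV 24 (15.1%) were higher and 15 (9.43%) lower. Of all 22180 genes, 6.75% were higher and 6.88% lower without EV, and 6.28% and 7.85% with EV. The lists were chosen with earlier results of these data known. When each array was left out in turn, 32 of the 41 calls without EV and 28 of the 39 with EV held in all 15 fits. The calls without EV that were lost in at least 1 fit were those of Cd47, Cd48, Cdc42se2, F2rl2, Itsn2, Jam3, Kit, Muc1 and Ptn. With EV they were those of Angpt4, Arhgdib, Cd164, Cxcl12, F2rl2, Fgd2, Muc1, Numb, Sdc4, Sele and Slit1. The least steady calls were Kit and F2rl2 without EV, held in 5 of 15 fits, and Arhgdib with EV, held in 3. Without non-cultured replicates 4 and 5 together, 7 calls were lost in each of these comparisons. The same fits gained 5 calls without EV and 4 with EV. Among those lost were Fgd1, Jam3 (limma adjusted p = 0.157) and Ptn (limma adjusted p = 0.11) without EV and Cxcl12 (limma adjusted p = 0.108) with EV. Among 27 measured surface markers of stem and progenitor cells, out of 30 listed, 10 rose and 4 fell without EV. Cxcr4, the receptor that holds stem cells in the marrow, rose by 2.27 (SE 0.14, limma adjusted p = 2.46e-08), and the tetraspanin Cd63 by 1.47 (SE 0.09, limma adjusted p = 1.81e-08). Flt3, a receptor of multipotent progenitors, rose by 0.63 (SE 0.07, limma adjusted p = 7.09e-06). The lower 4 were Cd53, Ifitm3, Thy1 and Cd47. With EV the counts were 9 and 4.

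Of 21 measured niche factors, out of 24 listed, 1 rose and 2 fell without EV. Jag2, a Notch ligand, fell by 1.47 (SE 0.21, limma adjusted p = 0.000156) and Ptn, pleiotrophin, by 0.89 (SE 0.26, limma adjusted p = 0.0287), while Il6 was higher by 0.65 at a dim level (means of 2.56 and 3.21). With EV, Jag2 fell by 1.52 (SE 0.21, limma adjusted p = 0.000115), and Cxcl12, the ligand of Cxcr4 that stromal cells make, was higher by 0.48 (SE 0.13, limma adjusted p = 0.0233). Cxcl12 read 4.94, 4.92, 5.57, 4.92 and 4.63 with EV, against a range of 4.31 to 4.61 in non-cultured cells. Markers of stromal cells stood beside it: the mean of 17 measured markers, Cxcl12 among them, ranged from 4.55 to 4.64 in non-cultured cells, 4.53 to 4.64 without EV and 4.55 to 4.79 with EV. With EV 4 of the 17 were higher than in non-cultured cells (Col1a2, Sparc, Cxcl12 and Cald1) and 1 lower (Thy1), and Cald1 was also higher than without EV. The part of RNA from other cells in this value was not tested.

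What EV changed was asked by setting the cultured groups against each other. Of the 9 genes, 0 were called higher and 0 lower, and 1 had an unadjusted p under 0.05. Of all 22180 genes, 40 (0.18%) were higher with EV and 4 (0.018%) lower, and 1.2% of all genes did not overlap between the groups, against 0 of the 9. All 9 estimates were below 0, with a median of -0.11 against 0.01 over all genes. Leaving out single arrays turned the sign for Procr, Cd34, Slamf1, Tek, Angpt1 and Robo4.

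The gene with the unadjusted p under 0.05 was Esam. It read 5.62, 5.86, 5.71, 5.76 and 5.27 with EV and 6.08, 6.02, 6.14, 5.76 and 5.93 without. In 24 of 25 pairs the array with EV was the lower; replicate 2 with EV lay above replicate 4 without. The log2 difference was -0.34 (SE 0.11, 95% interval -0.58 to -0.11), with a limma p of 0.00692 and an adjusted p of 0.524. It ranged from -0.40 to -0.25 when each array was left out in turn, with a lowest adjusted p of 0.409.

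For the other genes the 95% intervals of the log2 difference held 0. They ran from -0.50 to 0.07 around -0.22 for Pdzk1ip1 and from -0.60 to 0.34 around -0.13 for Angpt1. Angpt1 without replicate 1 with EV gave 0.08 (SE 0.17), on the other side of 0. Tek gave -0.09 (-0.44 to 0.27) and Robo4 -0.11 (-0.44 to 0.22). The intervals of the 4 remaining genes were -0.39 to 0.11 for Fgd5, -0.39 to 0.25 for Procr, -0.38 to 0.35 for Slamf1 and -0.17 to 0.16 for Cd34. A doubling of the signal by EV lies outside each of these 9 intervals. For the dim gene Slamf1, whose signal could not be told from background, the interval sets no limit on its RNA.

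Among the 159 genes of the lists, 1 passed this test. Cdc42ep1, an effector of the GTPase CDC42 on which Fgd5 acts, read 5.44, 4.88, 5.09, 4.91 and 4.74 with EV and 4.58, 3.91, 4.15, 4.44 and 4.32 without. The groups did not overlap. The mean rose from 4.28 ± 0.26 to 5.01 ± 0.27 (SD, n = 5 each), by 0.73 (SE 0.14, limma adjusted p = 0.0462). Replicate 1 was the highest with EV, and without it the difference was 0.63 and did not pass (limma adjusted p = 0.102). The call held in 2 of 15 fits that each left out 1 array, those without replicate 1 of the group without EV and without replicate 5 with EV, and the difference ran from 0.63 to 0.81. All values of Cdc42ep1 without EV and in non-cultured cells lay below the median of every array. Against non-cultured cells it differed by 0.60 with EV (limma adjusted p = 0.00821), a call held in 15 of 15 fits. Without EV it differed from them by -0.13 (limma adjusted p = 0.669). The part of RNA from other cells in this gene was not tested. For EV against no EV, Cxcl12 differed by 0.50 (limma adjusted p = 0.33) and Thbd by 0.67 (limma adjusted p = 0.463).

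**Figure D4:**
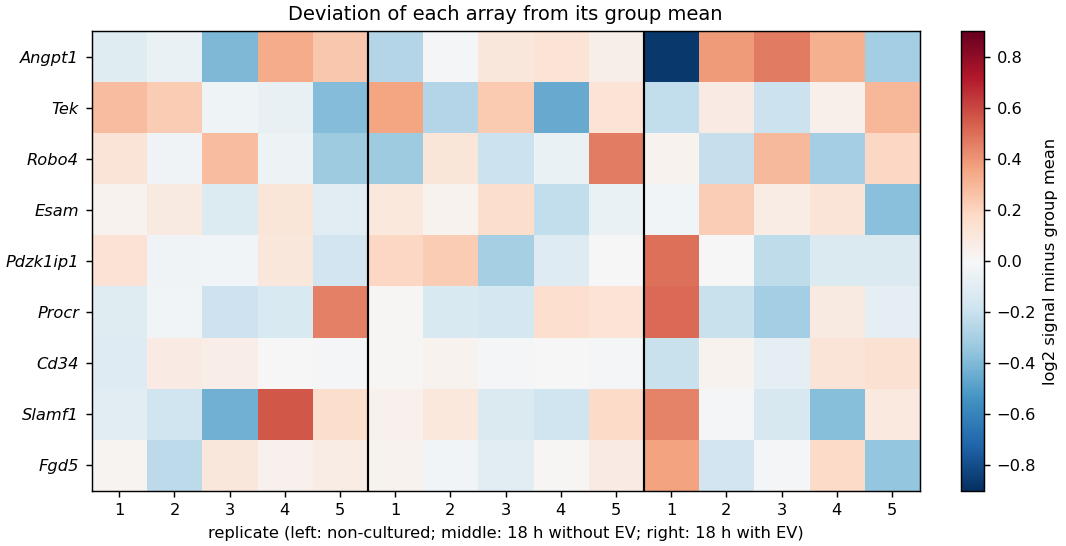
Deviation of each of the 15 arrays from its group mean (log2 signal, colour scale from -0.9 to 0.9) for the 9 measured genes, with the groups set apart by black lines. Replicate 1 with EV is the lowest of its group for Angpt1, Cd34 and Tek and the highest for Pdzk1ip1, Procr, Slamf1 and Fgd5.

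The 9 genes did not vary as a block within the groups. Over 36 pairs of genes, the correlation of deviations from the group means across 15 arrays ran from -0.64 (Angpt1 with Pdzk1ip1) to 0.55 (Procr with Fgd5), with a median of -0.10 and 15 pairs above 0. These points share their arrays, and replicate 1 with EV lies at the end of several of them. The correlations were not computed without it. Across all 15 log2 values, Angpt1 and Pdzk1ip1 had a correlation of -0.95, which follows the split between cultured and non-cultured cells.

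The genes whose log2 values over the 15 arrays most resembled those of each marker were ranked by Pearson correlation. For Angpt1 they were Egr1, an immediate early transcription factor (0.969), Mcm6, a subunit of the replicative helicase (0.969), and Zfp36, an RNA-binding regulator of message decay (0.964). For Pdzk1ip1 they were F13a1, a subunit of coagulation factor XIII (0.971), the lipid-binding protein gene Sec14l2 (0.962) and Cd63 (0.960). Esam was most like Rab5b, a GTPase of endosomes (0.919), Fam174a (0.911) and Pla2g7 (0.898). Robo4 was most like the prostaglandin receptor gene Ptger4 (0.925), Ywhaq (0.922) and Hilpda (0.922), and Tek was most like Tpcn1 (0.873), Grb2 (0.873) and Plac8 (0.867). For the 4 genes that passed no test, the most alike were Ano8 for Procr (0.881), Mettl9 for Cd34 (0.880), Gabbr1 for Slamf1 (0.894) and Cldn11 for Fgd5 (0.876). These correlations describe 15 arrays that fall into 3 groups, and the split between the groups is part of them. Each was also picked as the highest among all named genes. How high unrelated genes reach when picked this way was not tested. Over deviations from the group means the top 3 of each gene had correlations of 0.817 to 0.957.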

How the data were processed

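Gene expression was read on 15 arrays of mouse LSK cells. The authors deposited 1 table of 41345 probe sets, whose values are log2 signals by their range (1.40 to 13.0). The submitters' processing notes name MAS5, with no version or role; how background and scale were handled is not stated there. Gene names came from the platform annotation, in which 23521 probe sets have 1 symbol. Probe sets with several symbols (1814) or none given (16010) were left out. The brightest probe set stood for a gene, which gave 22180 genes.

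The values were used as deposited. The 3 group means of each gene were estimated from the 15 arrays in a single linear model (limma 3.58.1, run in R 4.3.3), and its moderated test had 12 residual and 3.66 prior degrees of freedom. A gene was called where its two-sided p, adjusted by Benjamini-Hochberg across the 22180 genes of that comparison, was under 0.05. The median SE of a log2 difference was 0.13, which with 5 arrays a group limits the precision. Of 105 pairs of arrays, 0 were identical over all probe sets. Single genes did hold the same value on several arrays. Procr, for example, read 5.596586 in non-cultured replicate 3, in replicate 1 without EV and in replicate 4 with EV. The source of such ties and their bearing on the spread were not tested. The labels give no batch or date, so batches were not examined. The fit was tested on simulated data. The 10 genes, the lists of partners and markers, and the tests were chosen with earlier results of these data known. Every one of the 10 genes was named, with up to 4 genes per list by the smallest p, every gene behind a count of 5 or fewer, and the 3 genes most correlated with each. Robo1, Cdh5, Kdr, Ppbp, Tubb1, Pf4, Gp5, Itgam and, for EV against no EV, Thbd and Cxcl12 were picked after their values were seen.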

Additional observations from a re-analysis of the deposited data

Results flagged for a closer look

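In 27 sets of 5 arrays (9 genes in 3 groups), each set was searched for an array far from the other 4 by the Dixon test at 5%, which chance passes in about 1 set of 20. Procr in non-cultured replicate 5 read 6.24, against 5.60 to 5.76 in the other 4. Fgd5 in non-cultured replicate 2 read 4.76, against 5.01 to 5.09 in the other 4.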

How the results depend on the processing

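The 9 genes were refitted under 23 alternatives: quantile normalization, median centring, no dimmest 40% of genes (without Slamf1, which is among them), the mean of a gene's probe sets, the 2 compared groups alone, array weights, a replicate block, each array left out in turn, and, chosen after seeing the data, no non-cultured replicates 4 and 5. Partner genes were refitted with arrays left out only, also chosen after seeing the data. Angpt1, Pdzk1ip1 and Robo4 kept their calls in both culture comparisons in all 23. Esam kept its call in 23 without EV and 19 with EV, and Tek in 22 and 20. Without non-cultured replicates 4 and 5, the count of genes higher with EV than in non-cultured cells was 1 in place of 3. Slamf1 was called with EV after quantile normalization (adjusted p = 0.0477) and median centring (0.0496), and with array weights in both (0.0358 without EV, 0.0222 with EV); the cause was not tested. No alternative called any of the 9 genes for EV against no EV. There the sign turned with array weights for Cd34 (0.027) and Angpt1 (0.0018), and when single arrays were left out the difference ran from -0.196 to 0.0081 for Procr, -0.036 to 0.048 for Cd34, -0.124 to 0.084 for Slamf1, -0.199 to 0.0039 for Tek, -0.251 to 0.083 for Angpt1 and -0.185 to 0.0089 for Robo4. Fgd5 with EV against non-cultured cells ran from -0.107 to 0.070, and was 0.019 without non-cultured replicates 4 and 5. The labels do not say whether replicate numbers pair the arrays, and these values cannot settle it. Deviations of same-numbered arrays correlated from -0.12 to 0.19. Of 10 arrays, 4 correlated best with their own number for EV against no EV. This held for 1 of 10 without EV and 3 of 10 with EV against non-cultured cells. With the replicate block the counts of called genes stayed at 0 and 0, 3 and 2, and 3 and 2. Signal over background is not given, which limits what can be said of dim genes such as Slamf1.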
